A study of Bos taurus with 9 samples.

Results

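The plasminogen activator system was followed in co-cultured bovine endometrial cells through 4 genes, PLAU, PLAUR, PLAT and SERPINE2. Every probe set whose array annotation gives 1 of these symbols alone was taken, which found 1 probe set for each gene, 4 of the 24016 probe sets tested and 4 of the 9155 genes they name. The gene identifiers are 281408 for PLAU, 281983 for PLAUR, 281407 for PLAT and 282521 for SERPINE2. Plasminogen activators are serine proteases that cut the inactive plasminogen into plasmin, a protease that dissolves fibrin and degrades matrix proteins. PLAU encodes urokinase, which works at the cell surface when bound to its membrane-anchored receptor, the product of PLAUR, and PLAT encodes the tissue-type activator. SERPINE2 encodes protease nexin 1, a secreted serpin that inhibits thrombin, urokinase and the tissue-type activator. In the uterus this system is known for its part in tissue remodelling and fibrinolysis.

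The donors were 9 Holstein/Polish Black and White cows at oestrous cycle days 2 to 5. Their stromal and epithelial cells were plated together at 3 to 1, and RNA of 3 cows was pooled for each sample and hybridised to 1 Affymetrix array. The groups were a control that received phosphate-buffered saline (PBS) only, a group given 1e-06 M lysophosphatidic acid (LPA, the 1-oleoyl form, a signalling lipid with G protein-coupled receptors) and a group given LPA with 1000 antiviral units of interferon tau (IFNt, the embryonic pregnancy signal of ruminants; no volume is stated). Exposure lasted 6 h, in serum-free medium with albumin, and each group had 3 arrays. The 9 arrays held no group given IFNt alone. A difference between LPA+IFNt and LPA is therefore that of adding IFNt in the presence of LPA. With 9 cows and 9 pools of 3, pools must share cows, and p-values measure only the spread between these pools.

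Levels are the deposited RMA values on a log2 scale, and differences are log2 differences of group means, tested with limma and adjusted by Benjamini-Hochberg over all 24016 probe sets, with 0.05 as the threshold. Array medians lay between 4.30 and 4.38, and arrays of 1 group correlated at r of 0.9965 to 0.999. ISG15, an interferon-stimulated gene, was higher by 6.63 (SE 0.12) in LPA+IFNt than in control (limma adjusted p = 6.3e-08) and MX1, an antiviral GTPase gene, by 5.35 (SE 0.11, adjusted p = 9.37e-08). Markers fixed for the labelled cells lay above 2.67, the highest mean among 3 control probe sets of a bacterial trp RNA and here the mark of an absent transcript, for 10 of 10 epithelial and 9 of 9 stromal genes. The epithelial marker KRT8 was near this mark, with a mean of 3.37. Of the other cell types a uterine preparation could hold, 5 of 10 leukocyte, 4 of 6 smooth muscle and pericyte, and 0 of 7 endothelial markers lay above the mark. Of all 24016 probe sets tested, 15696 lay above it. Those 5 leukocyte markers had means of 3.20 (CD53), 3.56 (CD68), 3.95 (PTPRC), 6.29 (LCP1) and 6.96 (CD14). All 4 genes of the system were far above the mark: the lowest value of any of them on any array was 11.44, for SERPINE2.

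PLAUR and SERPINE2 differed among the groups, and PLAU and PLAT did not pass. PLAUR, the urokinase receptor gene, rose in LPA+IFNt against control by 1.31-fold, and SERPINE2, the inhibitor gene, fell in LPA+IFNt against LPA to 0.833 of its LPA level. The activator genes PLAU and PLAT were called in none of the 3 comparisons. In limma's F test over the 3 groups together 2 of the 4 passed, PLAUR (adjusted p = 0.0118) and SERPINE2 (0.0389), where 5.99% of all probe sets passed. PLAU had an adjusted p of 0.681 and PLAT of 0.693. In such mixed cultures fewer cells of a type and less RNA per cell cannot be told apart.

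**Figure D1:**
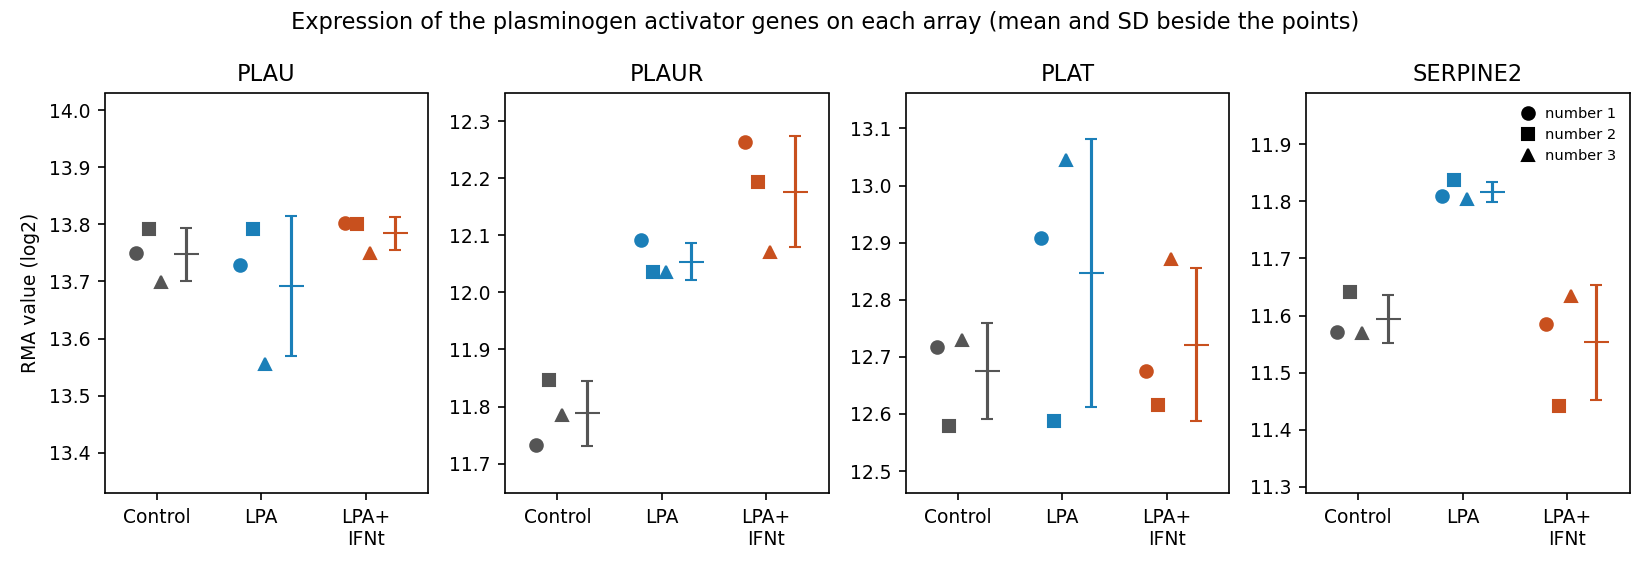
RMA value (log2) of PLAU, PLAUR, PLAT and SERPINE2 on each of the 9 arrays by group, with each panel spanning the same height of the log2 scale; symbols give the replicate number in the labels, and the bar beside the points is the mean with its SD (n = 3). The 3 control arrays of PLAUR lie below all others, the 3 LPA arrays of SERPINE2 lie above all others, and the groups of PLAU and PLAT overlap.

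PLAUR was the member with the clearest group pattern. Its values were 11.73, 11.85 and 11.78 on control arrays 1 to 3, 12.09, 12.04 and 12.04 with LPA, and 12.26, 12.19 and 12.07 with LPA+IFNt. All 6 treated arrays were above all 3 control arrays, and the treated groups overlapped, since LPA+IFNt array 3 lay below LPA array 1. Group means were 11.79 ± 0.06 in control, 12.05 ± 0.03 with LPA and 12.18 ± 0.10 with LPA+IFNt (SD, n = 3). The order of the levels was therefore LPA+IFNt, LPA and control, and only its ends differed past the threshold.

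In LPA+IFNt against control PLAUR was higher by 0.39 (SE 0.05, 95% interval 0.26 to 0.51, limma adjusted p = 0.0057), a fold of 1.31 with an interval of 1.20 to 1.43. This was the only call among the 4 genes in that comparison, where 5.34% of all probe sets passed (8.68% with a replicate block). Without the block 2.48% of all were higher. The call held in each of the 17 alternative fits, with adjusted p of 0.00346 to 0.0345. Arrays with the same replicate number differed by 0.53, 0.35 and 0.29 for numbers 1, 2 and 3, so each of the 3 was higher. In LPA against control PLAUR differed by 0.27 (SE 0.05, interval 0.14 to 0.39, adjusted p = 0.169). The step from LPA to LPA+IFNt was 0.12 (SE 0.05, interval -0.0029 to 0.25, adjusted p = 0.299). The comparisons share arrays: both treated groups were set against the same controls. In the comparison in which PLAUR rose, 2 of 9 stromal markers were lower, COL1A1 (-0.39) and COL3A1 (-0.51), with summed log2 levels of 98.96 to 99.67 against 100.2 to 101.5. In it 1 of 10 epithelial markers was higher, CDH1 (0.21), joined by MUC1 (0.40, adjusted p = 0.0288) with a replicate block. Of 10 leukocyte markers CD53 was higher (1.26), from a control mean of 2.75 that was near the trp level. CD14 stood at -0.74 (adjusted p = 0.110, or 0.0364 with a replicate block). The smooth muscle and pericyte list had 0 of 6 called by limma, the largest difference being ACTA2 at -0.55 (adjusted p = 0.117). Its summed levels were 34.36 to 35.49 against 35.55 to 37.27 in control. Between these groups 23.1% of all probe sets did not overlap. The part of these markers in the PLAUR difference was not tested.

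SERPINE2 had another order of levels. Its values were 11.57, 11.64 and 11.57 on control arrays 1 to 3, 11.81, 11.84 and 11.80 with LPA, and 11.58, 11.44 and 11.63 with LPA+IFNt. The 3 LPA arrays were the 3 highest of the 9 and lay within 0.03 of each other, while control and LPA+IFNt overlapped. Means were 11.59 ± 0.04, 11.82 ± 0.02 and 11.55 ± 0.10 (SD, n = 3) for control, LPA and LPA+IFNt.

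SERPINE2 was lower with LPA+IFNt than with LPA, at a log2 difference of -0.26 (SE 0.05, interval -0.38 to -0.15, limma adjusted p = 0.023), a fold of 0.833 with an interval of 0.767 to 0.904. It was the only one of the 4 genes called in LPA+IFNt against LPA, where 6.54% of all probe sets passed (9.66% with a replicate block). Without the block 3.98% of all were lower. With the same replicate number the differences were -0.23, -0.40 and -0.17. The call was lost in 6 of 17 alternative fits: with spike-in centring (adjusted p = 0.325), with no variance moderation (0.056), with the arrays of these 2 groups only (0.076), and without LPA replicate 1 (-0.27, 0.0753), LPA replicate 3 (-0.27, 0.0628) or LPA+IFNt replicate 1 (-0.28, 0.0564). Against control, SERPINE2 stood at 0.22 with LPA (SE 0.05, interval 0.10 to 0.34, adjusted p = 0.223) and at -0.04 with LPA+IFNt (SE 0.05, interval -0.16 to 0.08, adjusted p = 0.669).

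Some of the stromal markers were called in the same comparison as SERPINE2. In LPA+IFNt against LPA 4 of 9 were lower, where 3.98% of all probe sets were. These were COL1A1 (-0.55), COL1A2 (-0.25), COL3A1 (-0.54) and THY1 (-0.69), of which COL1A2 lost its call with a replicate block (adjusted p = 0.0609). The other 5 were not called: VIM (-0.19), DCN (-0.10), LUM (-0.33), POSTN (-0.51) and PDGFRB (0.05). The list's summed log2 level was 98.96 to 99.67 with LPA+IFNt, 101.7 to 103.2 with LPA and 100.2 to 101.5 in control. Among epithelial markers 1 of 10 was lower, SPINT2 (-0.45), with summed levels of 108.3 to 109.5 and 108.0 to 108.9 in LPA+IFNt and LPA. With a replicate block MUC1 (0.48, adjusted p = 0.0157) and KRT18 (0.20, 0.0378) were higher as well. Among smooth muscle and pericyte markers 1 of 6 was lower, ACTA2 (-1.05), and with a replicate block DES (-1.57, adjusted p = 0.0204, or 0.0526 without it) and CNN1 (-0.37, 0.0109, or 0.0624) were lower too. That list's summed levels did not overlap, at 34.4 to 35.5 with LPA+IFNt and 37.1 to 38.6 with LPA. Of all probe sets 18.7% did not overlap between these groups. Over the 9 arrays SERPINE2 had a Pearson r of 0.81 with the mean of the smooth muscle list and 0.76 with that of the stromal list, and 0.17 and -0.18 for deviations from group means. Their part in the SERPINE2 difference was not tested.

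**Figure D2:**
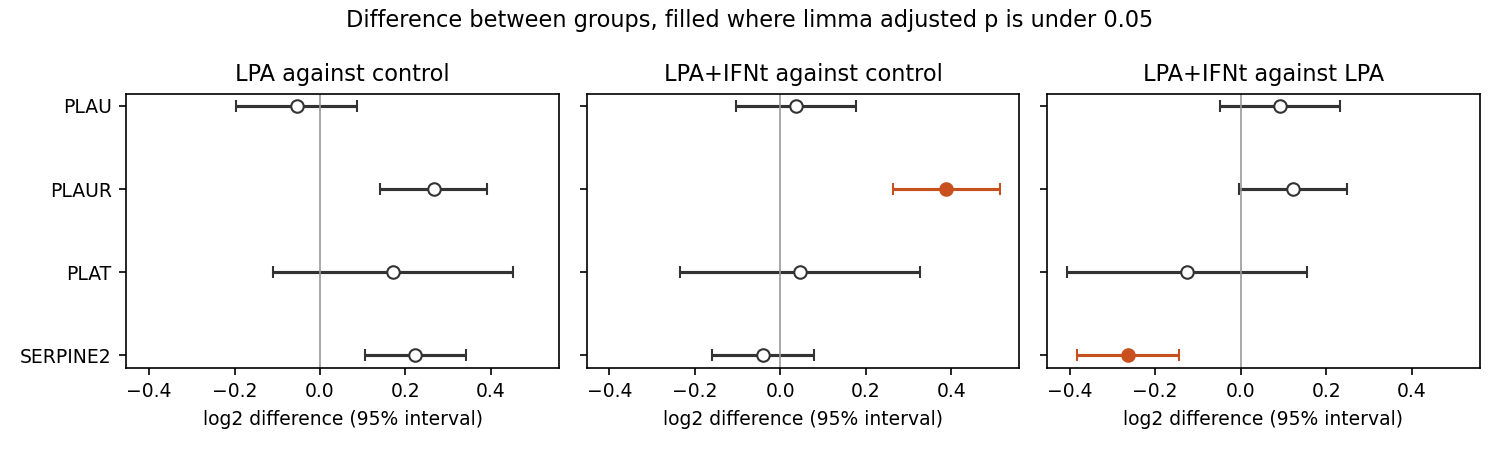
Log2 difference between groups for each gene in the 3 comparisons; points are limma estimates from all 9 arrays, bars are 95% intervals, and filled points have an adjusted p under 0.05. PLAUR in LPA+IFNt against control (0.39) and SERPINE2 in LPA+IFNt against LPA (-0.26) are filled, and the interval of PLAT is the widest in every panel.

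For LPA alone, 0 of the 4 genes passed limma's adjusted threshold, and 0 did so in any of the alternative fits; 0.0708% of all probe sets passed, or 0.0458% with a replicate block. At an unadjusted p under 0.05 there were 2 of 4, PLAUR and SERPINE2, against 8.3% of all probe sets by limma. The same 2 genes had LPA arrays that all lay above the control arrays, by a gap of 0.19 for PLAUR and 0.16 for SERPINE2, and 10% of all probe sets did not overlap between those groups, 5.13% with LPA above. With LPA+IFNt set against control, PLAUR alone of the 4 did not overlap (23.1% of all probe sets, 10.2% with LPA+IFNt above). Set against LPA, SERPINE2 alone did not overlap (18.7%, and 11.3% with LPA+IFNt below). The median log2 difference of the 4 genes was 0.20 with LPA, 0.04 with LPA+IFNt against control and -0.02 in LPA+IFNt against LPA, beside medians of 0.00, 0.02 and 0.02 over all probe sets.

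PLAU, the urokinase gene, stayed within a narrow band. Its values were 13.75, 13.79 and 13.70 on control arrays 1 to 3, 13.73, 13.79 and 13.56 with LPA, and 13.80, 13.80 and 13.75 with LPA+IFNt. The whole range over the 9 arrays was 0.25, and the lowest value was that of LPA array 3. The log2 difference was -0.05 with LPA (SE 0.06, interval -0.20 to 0.09, adjusted p = 0.997), 0.04 with LPA+IFNt against control (interval -0.10 to 0.18, adjusted p = 0.739) and 0.09 against LPA (interval -0.05 to 0.23, adjusted p = 0.544). The intervals reach folds of 0.873 to 1.06, 0.931 to 1.13 and 0.967 to 1.17, so larger changes than these lie outside them. These means were 13.75 ± 0.05, 13.69 ± 0.12 and 13.78 ± 0.03 (SD, n = 3).

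PLAT, the tissue-type activator gene, varied most among arrays of 1 group. Its values were 12.72, 12.58 and 12.73 on control arrays 1 to 3, 12.91, 12.59 and 13.04 with LPA, and 12.68, 12.62 and 12.87 with LPA+IFNt. Every group overlapped with the others, and the LPA arrays alone spanned 0.46. Means were 12.68 ± 0.08, 12.85 ± 0.23 and 12.72 ± 0.13 (SD, n = 3). The residual SD within groups was 0.16 for PLAT, 0.08 for PLAU, 0.07 for PLAUR and 0.06 for SERPINE2, where the median of the 15696 probe sets above the trp level was 0.12. The log2 difference of PLAT was 0.17 with LPA (SE 0.12, interval -0.11 to 0.45, adjusted p = 0.855), 0.05 with LPA+IFNt against control (adjusted p = 0.838) and -0.13 against LPA (adjusted p = 0.639). With single arrays left out, the LPA difference of PLAT went from 0.07, without LPA replicate 3, to 0.30, without LPA replicate 2 (adjusted p = 0.209).

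Arrays with the same replicate number lay alike for both activator genes. Number 2 held the lowest PLAT value and number 3 the highest in each of the 3 groups, with means over the groups of 12.77, 12.59 and 12.88 for numbers 1, 2 and 3. PLAU was lowest on number 3 in each group, with means of 13.76, 13.80 and 13.67. Of the sum of squares over the 9 arrays, the replicate number held 60.8% for PLAT and 52.6% for PLAU, but 3.07% for PLAUR and 0.862% for SERPINE2, beside a median of 28.8% over the probe sets above the trp level. The group held 22.8%, 26.3%, 89.5% and 83.3% for the same genes, beside a median of 37.7%. A limma F test of the replicate number with the group in the model called 0 of 24016 probe sets, with an adjusted p of 0.256 for PLAT (unadjusted 0.0165) and 0.314 for PLAU (unadjusted 0.055).

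**Figure D3:**
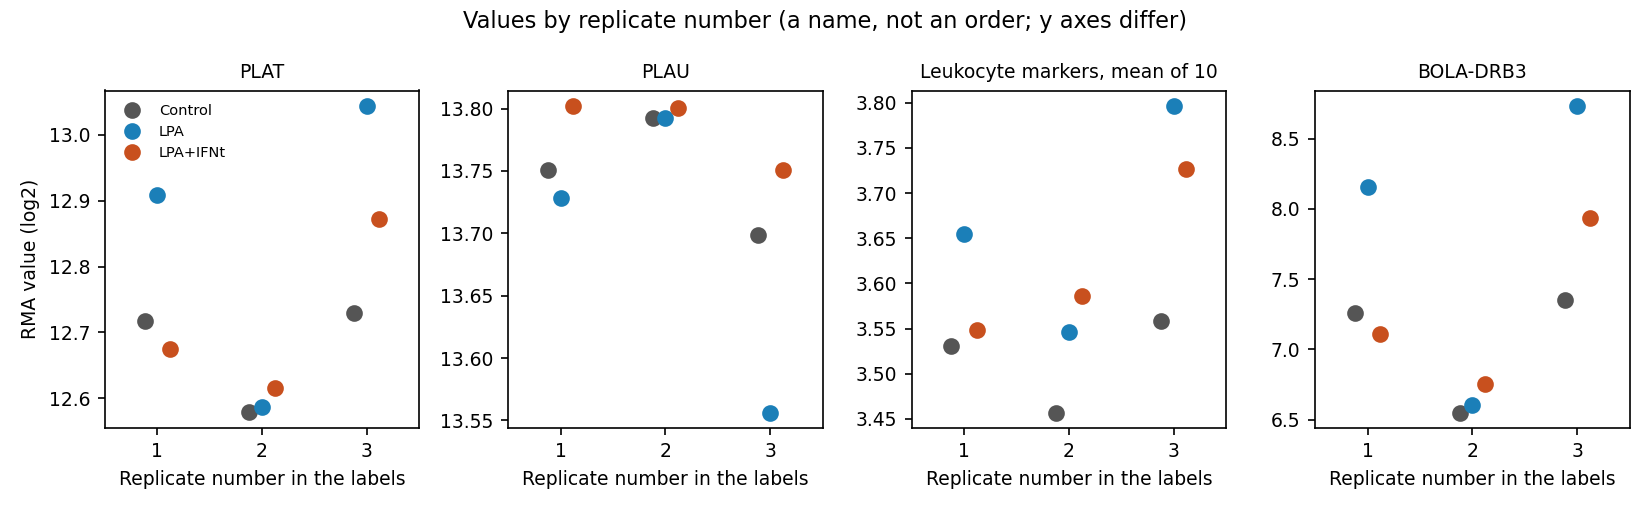
RMA values (log2) of PLAT and PLAU, the mean of the 10 leukocyte markers and BOLA-DRB3, plotted by the replicate number of the labels and coloured by group, on y axes that differ between panels. PLAT, the leukocyte mean of control and LPA, and BOLA-DRB3 are lowest on number 2, and PLAU is lowest on number 3 in each group.

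PLAT moved with the mean of the leukocyte markers from array to array, though not in every group. In LPA+IFNt the leukocyte mean was lowest on number 1 (3.55) and PLAT on number 2 (12.62). Over the 9 arrays the Pearson r of PLAT with the mean log2 level of the 10 leukocyte markers was 0.91, and 0.94 for deviations from group means; PLAU had -0.74 and -0.91, PLAUR 0.34 and -0.59, and SERPINE2 0.38 and 0.05. With the other 4 lists r lay between -0.06 and 0.58 for PLAT, the highest being the smooth muscle list (0.63 for deviations), and between -0.62, the stromal list, and 0.19 for PLAU. For PLAUR it lay between -0.20 and 0.45. These are descriptions over 9 arrays that share cows and, within a group, treatment. The summed log2 level of the leukocyte list was 34.6 to 35.6 in control, 35.5 to 38.0 with LPA and 35.5 to 37.3 with LPA+IFNt. PTPRC, CD53, LCP1, CD14 and CD68 had means above the trp level, and CSF1R, ITGB2, ITGAM, CD3E and CD2 did not. CD53 was higher with LPA+IFNt, by 1.26 against control and 1.15 against LPA, and no other marker of the list was called without a block. The CD53 means were 2.75 in control and 2.86 with LPA, near the trp level, and 4.01 with LPA+IFNt. With a replicate block CD14 was lower, by -0.74 against control (adjusted p = 0.0364) and -0.80 against LPA (0.0271). The part of leukocyte RNA in the PLAT values was not tested. Endothelial markers were at or below the trp level for 7 of 7 genes, with an array mean of 2.15 to 2.21. The cell source of the PLAT signal was not tested.

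PLAU and PLAT went in opposite directions over the arrays, with a Pearson r of -0.84 (Spearman -0.78, n = 9) and -0.86 after group means were removed. The other pairs had r between -0.42 (PLAU and SERPINE2) and 0.44 (PLAT and SERPINE2), and PLAUR had 0.19 with PLAU, 0.09 with PLAT and 0.04 with SERPINE2. The 9 arrays share cows, and the replicate number held 52.6% of the sum of squares of PLAU and 60.8% of that of PLAT. The arrays are therefore not 9 independent points for this pair. LPA array 3 had both the lowest PLAU value (13.56) and the highest PLAT value (13.04).

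Other named probe sets with the most similar course were sought by Pearson r over the 9 arrays among 9251 probe sets above the trp level. For PLAT the closest was BOLA-DRB3, a gene of MHC class II, with r = 0.9986 and the same order of all 9 arrays; its level ran from 6.55 on control array 2 to 8.73 on LPA array 3. PENK (0.985), the proenkephalin gene, and C1QTNF5 (0.982) came next. For PLAUR the closest were ZMYM5 (0.985), OPTN (0.970), which encodes the autophagy receptor optineurin, and IKZF5 (0.948). ZMYM5 had means of 6.43, 6.72 and 6.82 in control, LPA and LPA+IFNt. For SERPINE2 they were COG6 (0.961), the gene of a Golgi tethering subunit, MTMR6 (0.936) and ACAT2 (0.930), and COG6 had means of 4.15, 4.93 and 3.89. For PLAU they were ASGR2 (0.976), ZFAND2A (0.971) and BANP (0.971). These are descriptions over 9 arrays that share cows.

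The genes around the activators were taken from 5 lists that held 63 genes, of which 51 were measured. In LPA against control 0 of 51 were called by limma, with 1 called without LPA replicate 2. In LPA+IFNt against control 2 were higher and 1 lower, or 6 called in all with a replicate block. The 3 calls were 5.88% of the 51, beside 5.34% of all probe sets. In LPA+IFNt against LPA 3 were higher and 4 lower, or 9 called in all with a replicate block, and the 7 calls were 13.7% of the 51, beside 6.54% of all probe sets. Medians over the 51 genes were 0.02, 0.03 and 0.01 in the 3 comparisons. No probe set carried the symbol LRP1, the gene of a clearance receptor, alone, so it was not measured here.

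Among plasminogen and its inhibitors 6 of 10 genes were measured. PLG, the plasminogen gene, lay below the trp level with a mean of 2.41. SERPINB6, an intracellular serpin, was higher in LPA+IFNt (10.62 ± 0.14) than in LPA (10.22 ± 0.11), by 0.41 (SE 0.09, adjusted p = 0.0325), and was the 1 call of this list in that comparison, with 0 called against control. The list medians, in the order of the 3 comparisons above, were 0.01, 0.02 and 0.01. Of 4 measured genes of plasminogen binding at the cell surface 0 were called in any comparison (medians 0.07, 0.07 and -0.01). The smallest p-values belonged to ANXA2, which encodes annexin A2, at 0.10 with LPA (adjusted p = 0.511), and KRT8 at 0.10 with LPA+IFNt (adjusted p = 0.283). The 1 probe set of KRT8 had a mean of 3.37 over the 9 arrays, near the trp level.

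Among 15 measured partners and clearance receptors of the urokinase receptor, 1 fell in LPA+IFNt against control and 3 fell against LPA (medians 0.02, -0.01 and -0.03). IGF2R, the mannose 6-phosphate receptor gene, whose product binds the urokinase receptor, was 9.59 ± 0.15 in control, 9.58 ± 0.15 with LPA and 8.97 ± 0.13 with LPA+IFNt. It was lower by a log2 difference of -0.62 against control (SE 0.11, adjusted p = 0.0155) and -0.61 against LPA (adjusted p = 0.0147). Its second, dimmer probe set stood at -0.15 and -0.47, neither called. SORL1, a sorting receptor gene, was lower against LPA (-0.73, SE 0.16, adjusted p = 0.0406, or 0.0541 with the replicate block), with 1 of 4 probe sets called. ITGB3, the integrin beta 3 gene, was lower against LPA (-0.16, SE 0.03, adjusted p = 0.0343), and its other 3 probe sets lay below the trp level.

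In the list of tissue factor, thrombin and fibrin 2 of 15 measured genes rose with LPA+IFNt in each of its comparisons (medians 0.01, 0.06 and 0.05). PROCR, the endothelial protein C receptor gene, went from 9.12 ± 0.15 in control and 9.13 ± 0.11 with LPA to 10.09 ± 0.02 with LPA+IFNt, higher by 0.97 against control (SE 0.08, adjusted p = 0.000458) and 0.96 against LPA (adjusted p = 0.0005). TFPI, which encodes the inhibitor of the tissue factor pathway, went from 9.60 ± 0.10 and 9.70 ± 0.24 to 10.60 ± 0.03, higher by 1.00 against control (SE 0.11, adjusted p = 0.00211) and 0.90 against LPA (adjusted p = 0.00349), and 3 of 3 of its probe sets were called in both. The list of substrates of plasmin and of the activators had 11 measured genes (medians 0.09, -0.02 and -0.14), among them the receptor genes MET and PDGFRA, which are not substrates. In this list the interstitial collagenase gene MMP1 was the 1 call, lower by -0.21 in LPA+IFNt against LPA (SE 0.04, adjusted p = 0.0216), from 13.56 ± 0.05 to 13.35 ± 0.05.

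The calls of PROCR and TFPI held in 16 of 16 alternative fits. IGF2R against control lost its call without control replicate 1 (adjusted p = 0.0646) or 2 (0.0662), without LPA+IFNt replicate 2 (0.057) or 3 (0.0603) and with no variance moderation (0.0544). Against LPA the calls were lost in 4 fits for IGF2R, 5 for MMP1, 8 for SERPINB6, 11 for SORL1 and 12 for ITGB3. Those 5 genes were all uncalled without LPA replicate 1 (adjusted p = 0.0646 for IGF2R, 0.081 for MMP1, 0.0735 for SERPINB6, 0.141 for SORL1 and 0.0929 for ITGB3) and without LPA+IFNt replicate 3 (0.0559, 0.0672, 0.0769, 0.125 and 0.0937). Other single arrays also ended calls: LPA+IFNt replicate 2 for IGF2R (0.0554) and LPA replicate 3 for MMP1 (0.0759). SERPINB6 was uncalled without control replicate 1 or 2, LPA replicate 3 or LPA+IFNt replicate 1 (0.0515 to 0.0878), and ITGB3 without control replicate 1 or 2, LPA replicate 2 or 3 or LPA+IFNt replicate 1 (0.0551 to 0.1005). SORL1 was uncalled without any 1 array other than LPA replicate 2 (0.0669 to 0.141).

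**Figure D4:**
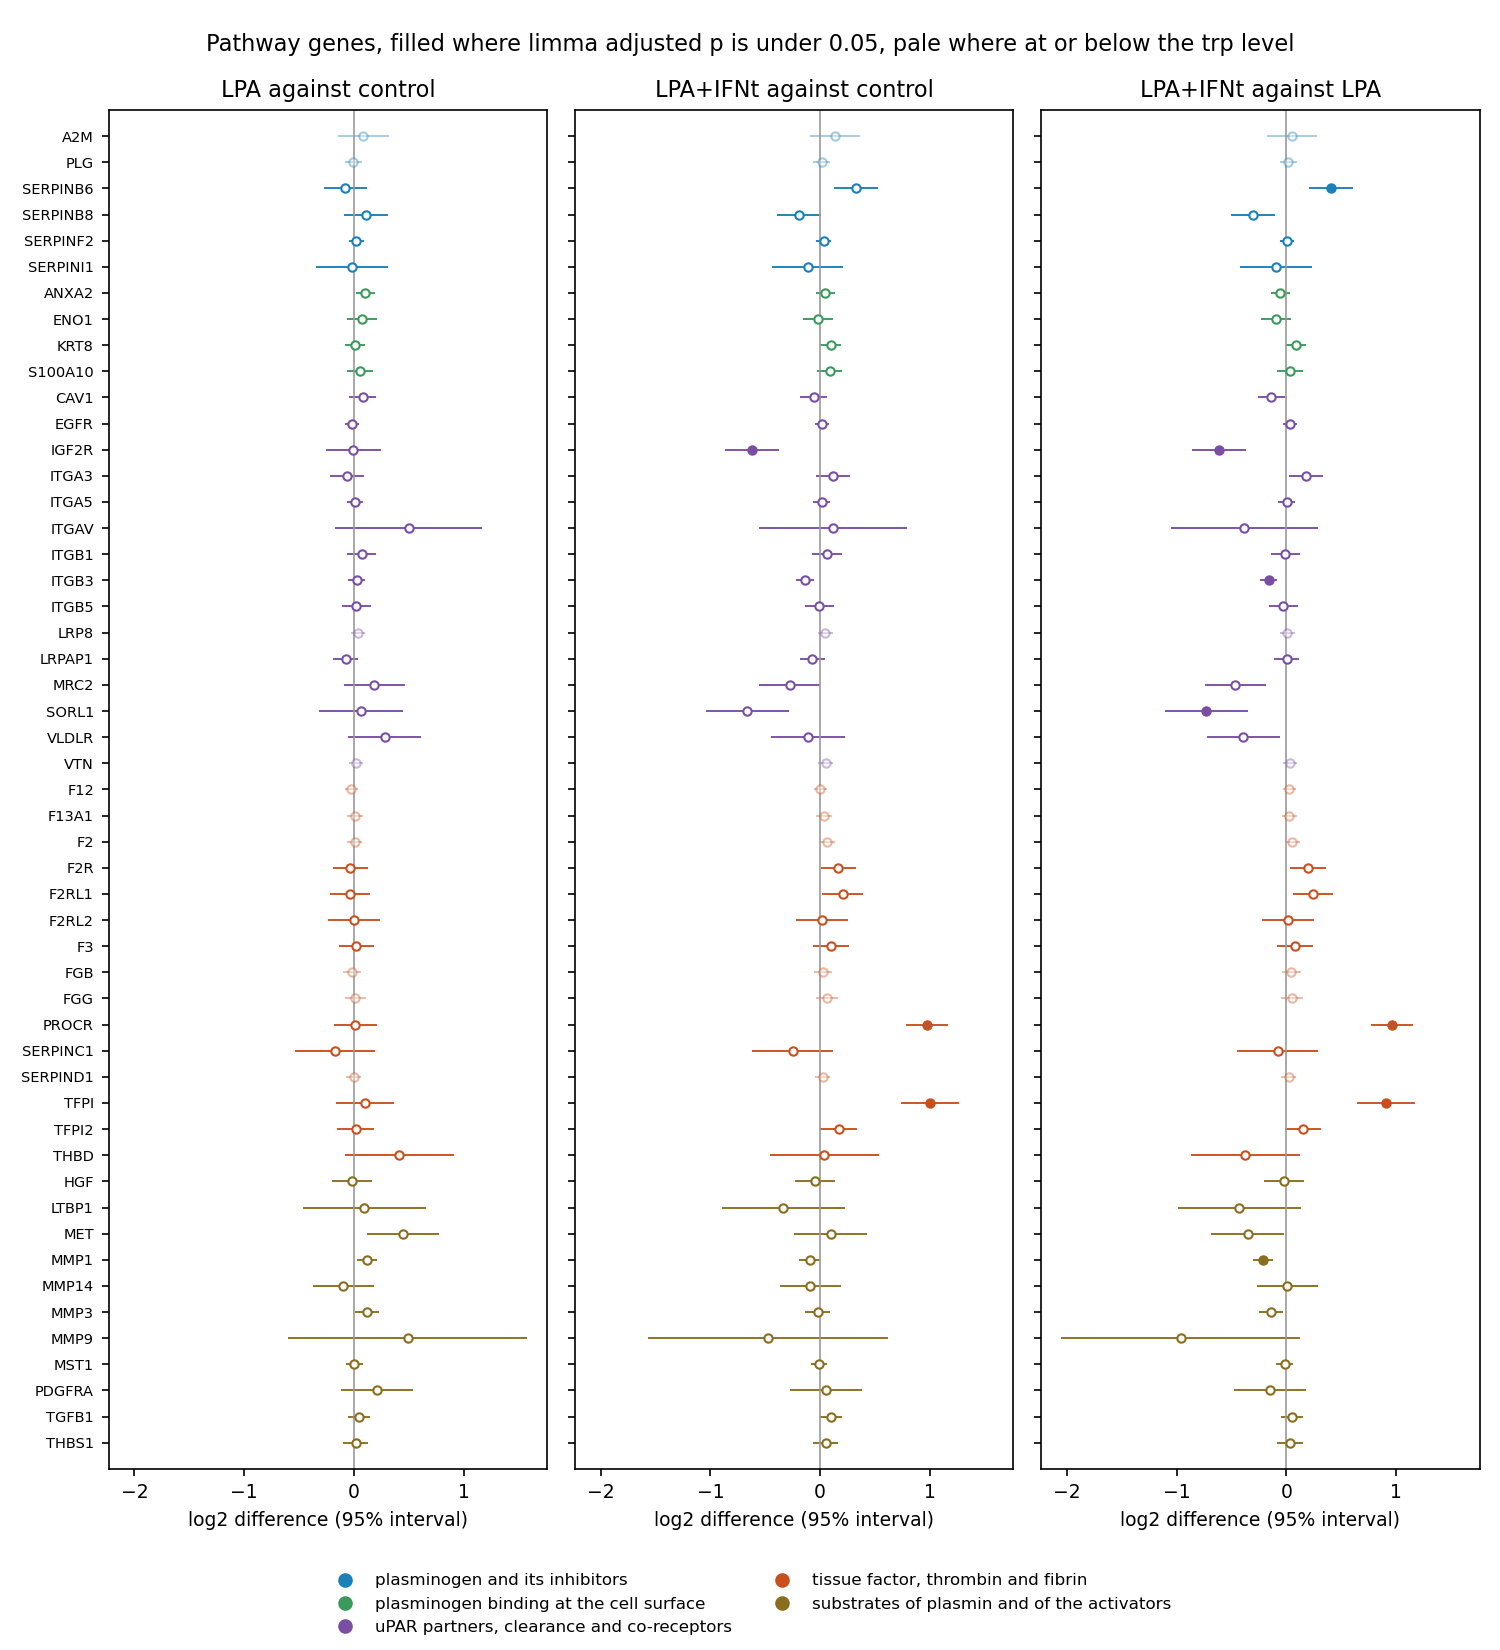
Log2 difference with its 95% interval for the 51 measured pathway genes in the 3 comparisons, by list; filled points have a limma adjusted p under 0.05 and pale points are genes whose mean lies at or below the trp level. No point is filled in LPA against control, and PROCR and TFPI stand near 1 in both comparisons of LPA+IFNt.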

How the data were processed

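Expression was measured on 9 Affymetrix arrays, 3 per group. The deposited log2 values were made with RMA in Partek by the authors, per the submitters' processing notes; its version is not given in these sources. RMA equalises the arrays' distributions, so a change of most transcripts in 1 direction would be hidden. Base 2 was taken from the usual RMA output. Of 24128 probe sets 112 Affymetrix controls were left out. Gene names came from the array annotation (13292 tested probe sets with 1 symbol, 86 with several, 10638 unnamed), checked by gene identifier in RefSeq's ARS-UCD2.0 table, which held 13263 and changed 0. No coordinates or sequences are given, since no build or sequence was in the sources used here.

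Differences were fitted with limma 3.58.1 in R 4.3.3 (lmFit, eBayes, two-sided) on all 9 arrays without covariates or a filter; a simulation with known changes was run first. The number of arrays limits the precision. The brightest probe set stood for a list gene. All 4 members were named; from each list the called genes were named, or the 2 with the smallest p, with PLG always. The members and lists were chosen with earlier results of these data known. Deviations from group means correlated at r of 0.19 to 0.49 for the 9 pairs of arrays with the same replicate number. For the other 18 pairs r was -0.47 to 0.14, so the numbers were taken to pair the samples. The replicate block among the alternatives used this pairing. The fit without covariates did not, so its SEs, intervals and p-values are unpaired. Alternatives were a replicate block, single arrays left out, 2 groups only, a filter at the trp level, median or spike-in centring, other variance settings and averaged probe sets; those for list genes and the test of the replicate number were added after seeing the data.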

Additional observations from a re-analysis of the deposited data

How the results depend on the processing

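Of the 204 differences of the 4 genes under the 17 alternative fits, 193 kept their direction and side of the threshold, 6 lost a call (SERPINE2 in LPA+IFNt against LPA) and 5 changed sign. Calls among the 4 genes stayed at 0 for LPA against control and 1 for LPA+IFNt against control in every fit; for LPA+IFNt against LPA there were 0 with spike-in centring, with no variance moderation and with the arrays of the 2 groups only, and 0 to 1 with single arrays left out. The cause was not tested, except that fits on 2 groups or with arrays left out hold fewer samples. Sign changes were of uncalled differences: SERPINE2 in LPA+IFNt against control was 0.021 with spike-in centring (-0.081 to 0.015 with arrays left out), PLAT -0.030 to 0.10 there, with -0.0029 without control replicate 2, and PLAU -0.11 to 0.013 in LPA against control.

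With the replicate number as a block the calls of the 4 genes did not change (PLAUR in LPA+IFNt against control adjusted p = 0.0127, SERPINE2 in LPA+IFNt against LPA 0.0456). Over all probe sets that block gave 11 calls in place of 17 for LPA against control and 2085 in place of 1282 for LPA+IFNt against control. LPA against control gave 0 to 169 calls with single arrays left out and 0 to 50 otherwise, LPA+IFNt against control 791 to 1352 and 788 to 2085, and LPA+IFNt against LPA 954 to 2204 and 901 to 2320, where the fit above gave 1571. Pathway genes called in LPA+IFNt against control were 3, or 6 with the block and 5 with spike-in centring, and in LPA+IFNt against LPA 7, or 9 with the block, 5 with spike-in centring, 4 with no variance moderation, 3 with the 2 groups only and 2 to 12 with arrays left out. With spike-in centring the median difference over all probe sets was 0.04, 0.08 and 0.05 in the 3 comparisons.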

Other observations

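Some pathway genes whose brightest probe set was not called had another probe set that was; these were chosen after their values were seen. MMP3, the stromelysin 1 gene, had a probe set at -0.36 in LPA+IFNt against LPA (SE 0.06, limma adjusted p = 0.00877), beside -0.14 for its brightest. F2R, the thrombin receptor gene, had one at 0.50 (SE 0.09, adjusted p = 0.0207), beside 0.20. THBS1, the thrombospondin 1 gene, had one at 1.08 in LPA+IFNt against LPA (SE 0.16, adjusted p = 0.00751), which stood at -1.05 in LPA against control (adjusted p = 0.0766), and another at -0.28 in LPA+IFNt against control (SE 0.06, adjusted p = 0.0386), while its brightest was at 0.03 and 0.05 in the 2 comparisons of LPA+IFNt.

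With the replicate number as a block, genes of the inhibitor list moved past the threshold: SERPINB8, an intracellular serpin, was lower with LPA+IFNt (-0.19, adjusted p = 0.0331 against control, and -0.30, 0.00799 against LPA), and SERPINB6 was higher against control too (0.33, 0.0347). MRC2, the gene of a collagen receptor associated with the urokinase receptor, was lower against LPA (-0.47, 0.0344), ITGB3 against control (-0.14, 0.0419), and F2RL1, a protease-activated receptor gene, higher against LPA (0.24, 0.0489).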
